A study of Homo sapiens with 12 samples.

Results

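The heat shock chaperones described here are 10 genes, namely the transcription factor gene HSF1 and 9 genes of chaperones or their partners: HSPA8, HSPA1A, HSPA1B, HSPH1, DNAJB1, HSP90AA1, HSP90AB1, HSPD1 and HSPE1. They were chosen by gene symbol from a table of 20318 entries, and where a symbol had several entries the one with the highest mean was used. RNA came from Z138, a human cell line of mantle cell lymphoma, kept in 0.5 µM AU-15330 for 24 h (3 libraries), in DMSO for 24 h (3), in AU-15330 for 8 h (3) or in DMSO for 8 h (2). AU-15330 is a bifunctional degrader of the chromatin remodelling ATPases SMARCA2 and SMARCA4 and of PBRM1, and DMSO is its solvent. The labels give the genotype as wild type, and all libraries are from 1 line. The labels also name DMSO replicate 3 at 8 h, but its entry points to the column of replicate 2, whose values stand in the table in duplicate and were counted once. The batch in the labels is the time itself, so that the difference between DMSO at 24 h and at 8 h and a batch difference cannot be told apart. The same holds for AU-15330 at 24 h against 8 h and for a difference of the AU-15330 effect between the times. AU-15330 and DMSO themselves were compared within a time and batch.

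The heat shock response is a transcriptional programme in which HSF1, released from chaperones when proteins misfold, binds repeated nGAAn units in promoters and raises the output of chaperone genes. HSP70 proteins hold unfolded chains in cycles of ATP hydrolysis that J-domain proteins start and exchange factors end, HSP90 proteins finish the folding of kinases and receptors with the help of co-chaperones, and the HSP60 barrel with its HSP10 lid folds proteins in mitochondria. Lymphoma cells hold high amounts of these proteins, and HSP90 and HSP70 are drug targets in them.

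Levels are given as normalised counts, recovered from the deposited log2 values, and changes as the difference of log2(normalised count + 60) with its standard error (SE), where 60 counts are about 1 CPM, the count scaled to a common library total. Because 60 is added, the change of a low gene is understated. A gene passed the test, or was called, when limma's p on the deposited scale, adjusted by Benjamini and Hochberg's method over the 12721 entries tested, was under 0.05. Estimated totals were 50745720 to 67576939 counts per library. Nothing in the labels says that replicates were separate cultures, so p-values cover the scatter of these libraries alone, and that scatter may be technical. The line carried its markers, with 8 of 8 B cell and mantle cell lymphoma genes in the table and summed counts of 198222 to 206207 in AU-15330 at 24 h, 244457 to 247537 in DMSO at 24 h, 185843 to 191661 in AU-15330 at 8 h and 216046 to 217146 in DMSO at 8 h. Of 6 T cell genes 5 were in the table, mainly CD3G, with sums of 120 to 146 in AU-15330 at 24 h, 814 to 863 in DMSO at 24 h, 259 to 345 in AU-15330 at 8 h and 799 to 806 in DMSO at 8 h. TRAC, the T cell receptor alpha constant gene, was too low to be tested. It was at 0 in every AU-15330 library at 8 h and at 0.973 to 2.65 counts in DMSO at 8 h. At 24 h it had 10.2 to 19.4 in AU-15330 and 23.7 to 34.2 in DMSO. Myeloid genes (3 of 6 in the table) summed to at most 75.8 and epithelial genes (3 of 5) to at most 137 counts in any library. Most of the B cell sums was CCND1, with means of 164898 in AU-15330 and 166468 in DMSO at 24 h (not called). Of the 8 B cell genes, 6 were called lower under AU-15330 at 24 h (75%) and 1 higher (12.5%), SOX11 at 1.15. All entries tested had 26.2% lower and 24.7% higher there. CD22 averaged 12.3 counts in AU-15330 and 325 in DMSO at 24 h. The B cell markers thus moved with the treatment in both directions, and the T cell sums were lower. Their part in the results below was not tested. These are whole-culture RNA samples, in which fewer cells of a kind and less RNA per cell cannot be told apart.

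The largest changes of the heat shock genes, in HSPA1B, DNAJB1, HSPH1 and HSPA8, were between 24 h and 8 h and not between AU-15330 and DMSO. HSP90AA1 and HSPD1 had AU-15330 effects, 0.30 at 8 h and -0.25 at 24 h, that were larger than their DMSO shifts of -0.15 and -0.12. In DMSO alone, HSPA1B, DNAJB1, HSPH1, HSPA8, HSP90AA1 and HSPD1 were lower at 24 h than at 8 h, which makes 6 of the 9 genes tested, and none was higher. Over all entries tested in that comparison, 3.56% were called lower, 6.56% higher and 10.1% in either direction. Called effects of AU-15330 itself lay between -0.25 and 0.30 on the log2 scale. At 24 h it lowered HSPD1, HSPA8, DNAJB1 and HSPE1 and raised HSP90AB1, that is 5 of 9, against 50.9% of all entries called (24.7% higher and 26.2% lower). The calls of HSPE1 and HSP90AB1 were narrow, and HSPE1 had a change of 0.01 in place of -0.08 under quantile normalisation. At 8 h it raised HSP90AA1, HSPA8 and HSPH1 and lowered none, 3 of 9, against 44.2% of all entries (22.9% higher and 21.4% lower). In either direction these shares, 55.6% at 24 h and 33.3% at 8 h, were near or under those of all entries. By direction, the 44.4% lower at 24 h and the 33.3% higher at 8 h stood above all entries, each as a count over 9 genes only. HSPA1A did not pass the filter of 1 CPM in 3 libraries, so these counts are not over every member.

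**Figure D1:**
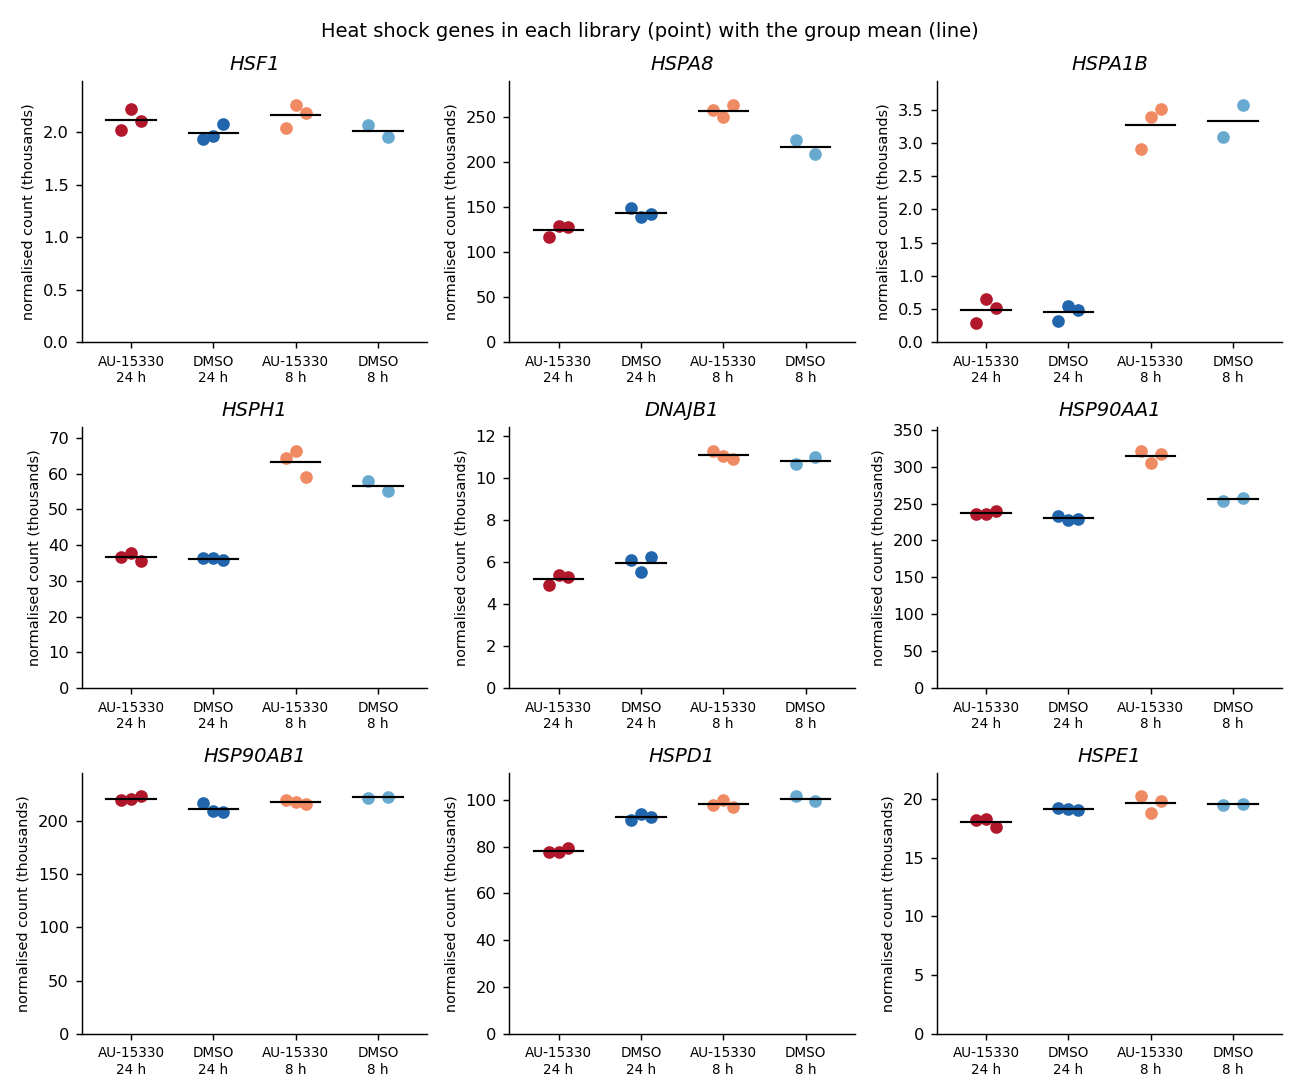
Normalised counts (in units of 1000, linear axis from 0) of the 9 tested genes in each library (points) and the mean of each group (line), with AU-15330 24 h, DMSO 24 h, AU-15330 8 h and DMSO 8 h running left to right. HSPA8, HSPA1B, HSPH1 and DNAJB1 separate by time in both arms, whereas HSF1 and HSP90AB1 lie near 1 level throughout.

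HSF1, the master activator of the response, passed the test in none of the 5 comparisons. It had 2016, 2217 and 2107 normalised counts in AU-15330 at 24 h and 1939, 1965 and 2077 in DMSO at 24 h. The 8 h libraries had 2040, 2261 and 2178 in AU-15330 and 2066 and 1956 in DMSO. The ranges overlapped in every comparison. Its log2 change under AU-15330 was 0.08 ± 0.057 at 24 h (SE, limma adjusted p = 0.258) and 0.10 ± 0.0637 at 8 h (limma adjusted p = 0.226), and in DMSO between the times it was -0.01 ± 0.0637 (limma adjusted p = 0.937). The DMSO value turned to 0.03 without DMSO 8 h replicate 1. HSF1 has 2 entries with identical values, so its reads may be shared between copies. The RNA level says nothing of the activity of the factor, which is set on the protein.

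The genes that HSF1 can act on were examined in RefSeq's promoter windows (GRCh38.p14), each from 250 bases before a transcription start to 50 after it. The 9 members other than HSF1 had 15 such windows in all, with several for a gene that has several starts. Each window was searched on both strands for 3 alternating units, GAANNTTCNNGAA or its reverse complement TTCNNGAANNTTC, and for 2 inverted units, GAANNTTC or TTCNNGAA, which lie inside the longer ones. Of 35116 windows of 27305 genes, 0.49% held 3 units and 13.5% held 2. Among the 9 genes, HSPA8, HSP90AA1, HSP90AB1 and HSPD1 had a window with 3 units. HSPA1A, HSPA1B and DNAJB1 had 2 units only, and neither form was in the windows of HSPH1 or HSPE1, which says only that these letters are not in those windows. For each of the 6 tested genes with a match, the window with the most units is printed here, 5′ to 3′ on the strand of the gene and with the matched units in capitals, so that the element can be seen whatever the gene did. Of the tested genes with a match, HSPA8, HSPA1B, DNAJB1, HSP90AA1 and HSPD1 were called lower in DMSO at 24 h than at 8 h. HSP90AB1, whose pair of 3-unit runs lies in a single window, was not called. Of those without a match, HSPH1 fell by 0.64 and HSPE1 was not called. Whether matches go with the shift was not tested. The windows are chr11:123062087-123062386 (minus strand) for HSPA8, chr6:31827488-31827787 (plus) for HSPA1B, chr19:14518348-14518647 (minus) for DNAJB1, chr14:102086995-102087294 (minus) for HSP90AA1, chr6:44247693-44247992 (plus) for HSP90AB1 and chr2:197499791-197500090 (minus) for HSPD1.
HSPA8: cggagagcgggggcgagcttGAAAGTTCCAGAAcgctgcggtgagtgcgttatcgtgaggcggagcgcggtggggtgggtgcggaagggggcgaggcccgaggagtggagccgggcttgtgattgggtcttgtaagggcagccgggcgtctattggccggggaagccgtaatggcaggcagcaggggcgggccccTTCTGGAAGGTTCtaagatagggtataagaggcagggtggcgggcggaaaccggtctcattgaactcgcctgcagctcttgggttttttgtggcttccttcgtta
HSPA1B: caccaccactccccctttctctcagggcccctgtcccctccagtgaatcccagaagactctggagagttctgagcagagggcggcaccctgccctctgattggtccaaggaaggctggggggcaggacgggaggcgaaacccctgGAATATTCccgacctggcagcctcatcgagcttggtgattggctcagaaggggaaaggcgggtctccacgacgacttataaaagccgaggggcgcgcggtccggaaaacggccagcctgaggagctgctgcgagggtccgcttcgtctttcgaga
DNAJB1: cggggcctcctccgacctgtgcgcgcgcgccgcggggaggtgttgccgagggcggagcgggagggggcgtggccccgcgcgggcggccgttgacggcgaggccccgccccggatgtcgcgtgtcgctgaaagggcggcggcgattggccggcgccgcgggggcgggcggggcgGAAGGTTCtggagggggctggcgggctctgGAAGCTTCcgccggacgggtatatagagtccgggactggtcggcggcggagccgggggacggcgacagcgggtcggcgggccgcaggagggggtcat
HSP90AA1: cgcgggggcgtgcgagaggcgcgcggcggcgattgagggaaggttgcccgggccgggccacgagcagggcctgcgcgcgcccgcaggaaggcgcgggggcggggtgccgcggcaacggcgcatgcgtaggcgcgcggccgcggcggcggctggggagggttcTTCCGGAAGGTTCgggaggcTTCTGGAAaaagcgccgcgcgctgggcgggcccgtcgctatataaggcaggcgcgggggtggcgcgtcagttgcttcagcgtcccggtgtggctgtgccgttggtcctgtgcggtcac
HSP90AB1: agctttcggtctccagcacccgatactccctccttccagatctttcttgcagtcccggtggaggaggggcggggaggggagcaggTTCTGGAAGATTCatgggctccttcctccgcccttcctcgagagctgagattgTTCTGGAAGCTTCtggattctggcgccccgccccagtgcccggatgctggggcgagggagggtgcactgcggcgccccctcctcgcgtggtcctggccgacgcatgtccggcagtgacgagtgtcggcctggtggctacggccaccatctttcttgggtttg
HSPD1: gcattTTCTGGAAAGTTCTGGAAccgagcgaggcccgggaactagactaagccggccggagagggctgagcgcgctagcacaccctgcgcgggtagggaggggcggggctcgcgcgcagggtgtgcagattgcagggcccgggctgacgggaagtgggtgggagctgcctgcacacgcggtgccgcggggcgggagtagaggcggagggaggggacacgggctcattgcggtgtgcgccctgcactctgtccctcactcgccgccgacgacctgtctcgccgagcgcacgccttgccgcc
Counting bases before the start as negative, the 3-unit runs of HSPA8 begin at -230 and -55, those of HSP90AB1 at -165 and -112 and that of HSP90AA1 at -88. HSPD1 holds an unbroken run of 18 bases that begins at -245. The 8-base run of HSPA1B, GAATATTC, begins at -105 and that of HSPA1A, with the same letters, at -106. A match is a description of the sequence, and binding was not measured.

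HSPA8 encodes the constitutive cytosolic HSP70 (GRCh38 chromosome 11, 123057489 to 123063230). It fell between the times in both arms and moved in opposite directions under AU-15330 at the 2 times. It had 116539, 128553 and 127682 normalised counts in AU-15330 at 24 h and 149292, 138389 and 142322 in DMSO at 24 h. At 8 h it had 257215, 250149 and 263335 counts in AU-15330 and 223977 and 208342 in DMSO. No pair of groups overlapped, and the order of the levels was AU-15330 8 h, DMSO 8 h, DMSO 24 h, AU-15330 24 h from high to low. In DMSO the change between 24 h and 8 h was -0.59 ± 0.0505 (SE, limma adjusted p = 3.22e-05), the 98th lowest of 12721. The effect of AU-15330 was -0.21 ± 0.0452 at 24 h (limma adjusted p = 0.00243) and 0.25 ± 0.0505 at 8 h (limma adjusted p = 0.00174). The difference between those effects was itself tested and was -0.46 ± 0.0677 (limma adjusted p = 0.00109). Within the AU-15330 arm the level at 24 h was thus 0.484 times that at 8 h, a log2 change of -1.05 ± 0.0452, made up of the DMSO shift of -0.59 and the difference of -0.46.

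HSPA1A and HSPA1B are near-identical neighbours in the major histocompatibility region of chromosome 6 that encode the stress-inducible HSP70. In the table HSPA1A has 1 entry and HSPA1B has 5, of which 4 lie off the primary assembly. Of the 31-base windows of HSPA1B transcripts, 73.1% also occur in HSPA1A transcripts, so reads cannot be assigned between the genes or their copies with certainty. HSPA1A was listed between 0 and 5.382 normalised counts, at 0 in 7 of 11 libraries, and was not tested. The highest HSPA1B entry, which lies off the primary assembly, had 286.4, 653.3 and 515.4 counts in AU-15330 at 24 h and 314.1, 549.7 and 487.6 in DMSO at 24 h. Its 8 h counts were 2902, 3391 and 3516 in AU-15330 and 3090 and 3574 in DMSO. AU-15330 and DMSO overlapped at each time, and the 2 times did not overlap in either arm.

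The fall of HSPA1B was the largest of the 12721 entries in DMSO. Its mean at 24 h was 0.135 times that at 8 h, a log2 change of -2.76 ± 0.268 (SE, limma adjusted p = 1.32e-05). In AU-15330 the change was -2.67 ± 0.239 (limma adjusted p = 1.43e-06), the second lowest of all entries. The entry below it was another copy of HSPA1B, with means of 3182 counts at 8 h and 418.8 at 24 h in AU-15330. These ranks are over entries, among which HSPA1B stands more than once. The effect of AU-15330 was 0.06 ± 0.239 at 24 h (limma adjusted p = 0.83) and -0.03 ± 0.268 at 8 h (limma adjusted p = 0.898), and both signs turned when entries were summed and in at least 1 fit that left out a library. The difference between these effects was 0.09 ± 0.359 (limma adjusted p = 0.858), and this SE leaves room for a change of the size seen in HSPA8.

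Summing the 6 HSPA1A and HSPA1B entries removes the division of reads between copies. The sums were 1191, 1518 and 1576 normalised counts in AU-15330 at 24 h and 1419, 1466 and 1701 in DMSO at 24 h. At 8 h they were 8663, 9327 and 8019 in AU-15330 and 8266 and 8541 in DMSO. The means were 1428 ± 208 in AU-15330 and 1529 ± 151 in DMSO at 24 h (SD, n = 3 each), and at 8 h they were 8670 ± 654 in AU-15330 (SD, n = 3) and 8404 ± 194 in DMSO (SD, n = 2). AU-15330 and DMSO overlapped at both times, and the times were apart in both arms. The DMSO shift of the sum was -2.42 (limma adjusted p = 4.52e-08), and the effect of AU-15330 was -0.10 at 24 h and 0.04 at 8 h. The chosen entry held between 22.1% and 43.8% of the sum in a library. In AU-15330 24 h replicate 1 the primary-assembly entry of HSPA1B had 304.1 counts, against at most 2.647 in any other library.

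**Figure D2:**
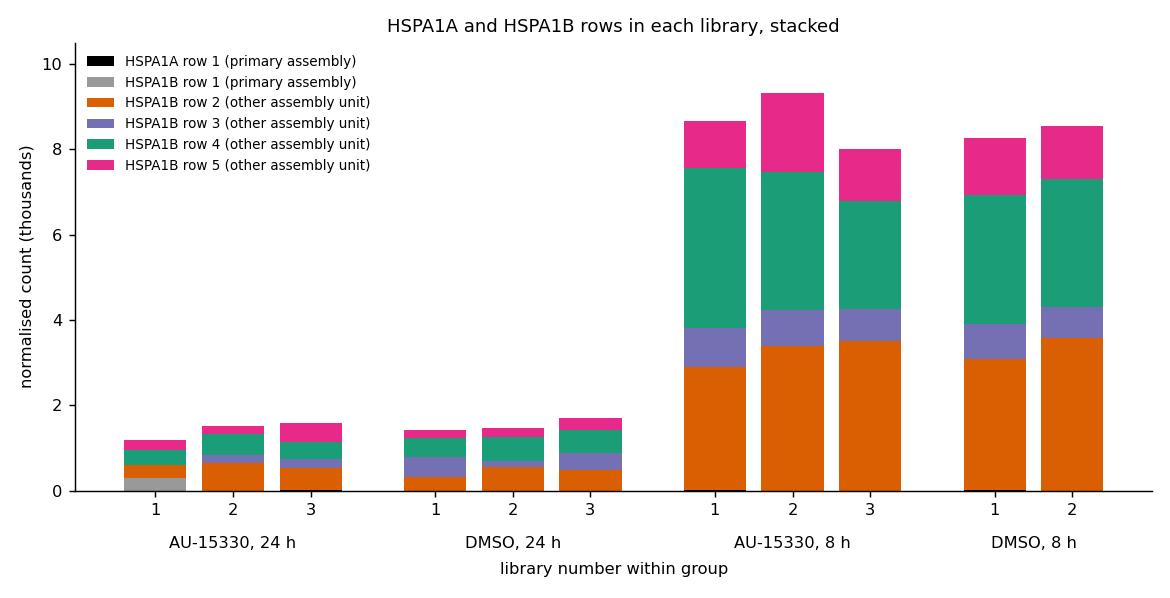
Normalised counts (in units of 1000, linear axis from 0) of the HSPA1A entry and the 5 HSPA1B entries, stacked for each library, with groups from AU-15330 24 h on the left to DMSO 8 h on the right. The stacks reach at most 1701 counts at 24 h and at least 8019 at 8 h, and the division between entries differs from library to library.

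HSPH1 encodes HSP110 (chromosome 13, 31134974 to 31162388), a nucleotide exchange factor of HSP70. It had 36561, 37831 and 35462 normalised counts in AU-15330 at 24 h and 36364, 36437 and 35800 in DMSO at 24 h. At 8 h it had 64394, 66463 and 59163 in AU-15330 and 57810 and 55242 in DMSO. AU-15330 and DMSO overlapped at 24 h and not at 8 h, and the times did not overlap. HSPH1 fell by 0.64 ± 0.0472 in DMSO between the times (SE, limma adjusted p = 1.43e-05). Its change under AU-15330 was 0.02 ± 0.0422 at 24 h (limma adjusted p = 0.78) and 0.16 ± 0.0472 at 8 h (limma adjusted p = 0.0154). The call at 8 h was lost without DMSO 8 h replicate 2, where the change was 0.13 (limma adjusted p = 0.116), and in a fit of the 8 h groups alone (limma adjusted p = 0.0548). The difference between the effects, -0.15 ± 0.0634, did not pass (limma adjusted p = 0.131), but passed at -0.19 (limma adjusted p = 0.0296) without AU-15330 8 h replicate 3.

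DNAJB1 encodes HSP40 (chromosome 19, 14514770 to 14529770), the J-domain protein that delivers clients to HSP70 and starts its ATP hydrolysis. It had 4912, 5384 and 5271 normalised counts in AU-15330 at 24 h and 6106, 5499 and 6241 in DMSO at 24 h. The 8 h counts of DNAJB1 were 11294, 11056 and 10878 in AU-15330 and 10653 and 10976 in DMSO. The 24 h groups did not overlap each other or the 8 h groups, whereas the 8 h groups overlapped. The DMSO shift was -0.86 ± 0.057 (SE, limma adjusted p = 5.35e-06), the 26th lowest of all entries, and DNAJB1 at 24 h stood at 0.55 times its DMSO level at 8 h. AU-15330 lowered it at 24 h, with a change of -0.19 ± 0.0509 (limma adjusted p = 0.00935), and had a change of 0.03 ± 0.057 at 8 h (limma adjusted p = 0.622). The difference between the effects was -0.23 ± 0.0764 (limma adjusted p = 0.0627). It passed at -0.28 (limma adjusted p = 0.0194) without DMSO 24 h replicate 2, the lowest DMSO library of its group.

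HSP90AA1 and HSP90AB1 encode the inducible and the constitutive cytosolic HSP90. HSP90AA1 (chromosome 14, 102080738 to 102139699) had 236174, 235700 and 239203 normalised counts in AU-15330 at 24 h and 233221, 227659 and 229014 in DMSO at 24 h. At 8 h it had 321780, 304292 and 317464 in AU-15330 and 253827 and 258070 in DMSO. The 4 groups did not overlap, and the 8 h AU-15330 libraries stood above all others. The rise under AU-15330 at 8 h, 0.30 ± 0.0297 (SE, limma adjusted p = 8.19e-06), was called in every fit that left out a library, with changes of 0.28 to 0.32. At 24 h the effect was 0.04 ± 0.0266 (limma adjusted p = 0.17), but it was 0.17 and called under quantile normalisation (limma adjusted p = 1.39e-06). The difference between the times was -0.25 ± 0.0399 (limma adjusted p = 0.00119). The DMSO shift was -0.15 ± 0.0297 (limma adjusted p = 0.00583), and the fall of 0.41 within AU-15330 is the sum of this shift and the difference, up to rounding.

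HSP90AB1 (chromosome 6, 44246166 to 44253888) had 219321, 220416 and 223136 normalised counts in AU-15330 at 24 h and 216774, 209048 and 208900 in DMSO at 24 h. Its 8 h libraries had 219670, 217412 and 216027 in AU-15330 and 221545 and 223011 in DMSO. The span was narrow, and of the pairs compared here only AU-15330 at 24 h and at 8 h overlapped. The effect of AU-15330 was 0.06 ± 0.0239 at 24 h (SE, limma adjusted p = 0.0354). It missed the threshold in 5 of 11 fits that left out a library, with limma adjusted p up to 0.127. These fits left out DMSO 24 h replicate 2 or 3 or any AU-15330 24 h library. At 8 h the change was -0.03 ± 0.0268 (limma adjusted p = 0.359) and turned to 0.02 under quantile normalisation. The DMSO shift was -0.07 ± 0.0268 (limma adjusted p = 0.0978), and the difference of the effects was 0.09 ± 0.0359 (limma adjusted p = 0.0791). No 31-base window of HSP90AB1 transcripts occurs in HSP90AA1 transcripts, so exact sharing of such stretches does not mix the pair.

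HSPD1 and HSPE1 encode the mitochondrial HSP60 and its HSP10 lid and lie head to head on chromosome 2. Their promoter windows overlap, chr2:197500225-197500524 of HSPD1 on the minus strand and chr2:197500129-197500428 of HSPE1 on the plus strand, and the 18-base run printed above is in the other HSPD1 window. HSPD1 (197486581 to 197516737) had 77588, 77555 and 79481 normalised counts in AU-15330 at 24 h and 91243, 94092 and 92903 in DMSO at 24 h. At 8 h it had 97933, 99976 and 96853 in AU-15330 and 101557 and 99438 in DMSO. The AU-15330 libraries at 24 h were below all others, and the 8 h groups overlapped. AU-15330 lowered HSPD1 at 24 h by 0.25 ± 0.0251 on the log2 scale (SE, limma adjusted p = 8.55e-06), to 0.843 times DMSO, and its change at 8 h was -0.03 ± 0.0281 (limma adjusted p = 0.364). The 8 h change was -0.09 and called under quantile normalisation (limma adjusted p = 0.0205). The difference between the times was -0.21 ± 0.0377 (limma adjusted p = 0.00298). In DMSO the shift was -0.12 ± 0.0281 (limma adjusted p = 0.0227), and it missed the threshold without DMSO 8 h replicate 1 or 2 or DMSO 24 h replicate 1 or 3, with limma adjusted p of 0.0566 to 0.126.

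HSPE1 (chromosome 2, 197499994 to 197503457) had 18241, 18308 and 17633 normalised counts in AU-15330 at 24 h and 19208, 19158 and 19090 in DMSO at 24 h. The 8 h counts of HSPE1 were 20227, 18780 and 19868 in AU-15330 and 19504 and 19607 in DMSO. The AU-15330 group at 24 h was the lowest and overlapped none of the others. The change at 24 h of -0.08 ± 0.0322 (SE, limma adjusted p = 0.0483) missed the threshold in 9 of 11 fits that left out a library, all but those without AU-15330 8 h replicate 1 or 2, with limma adjusted p up to 0.141, and with replicate number as a block (limma adjusted p = 0.064), and was 0.01 under quantile normalisation. At 8 h the change was 0.00 ± 0.036 (limma adjusted p = 0.933), and the DMSO shift was -0.03 ± 0.036 (limma adjusted p = 0.671). Whether HSPD1 and HSPE1 differed from each other in their response was not tested.

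**Figure D3:**
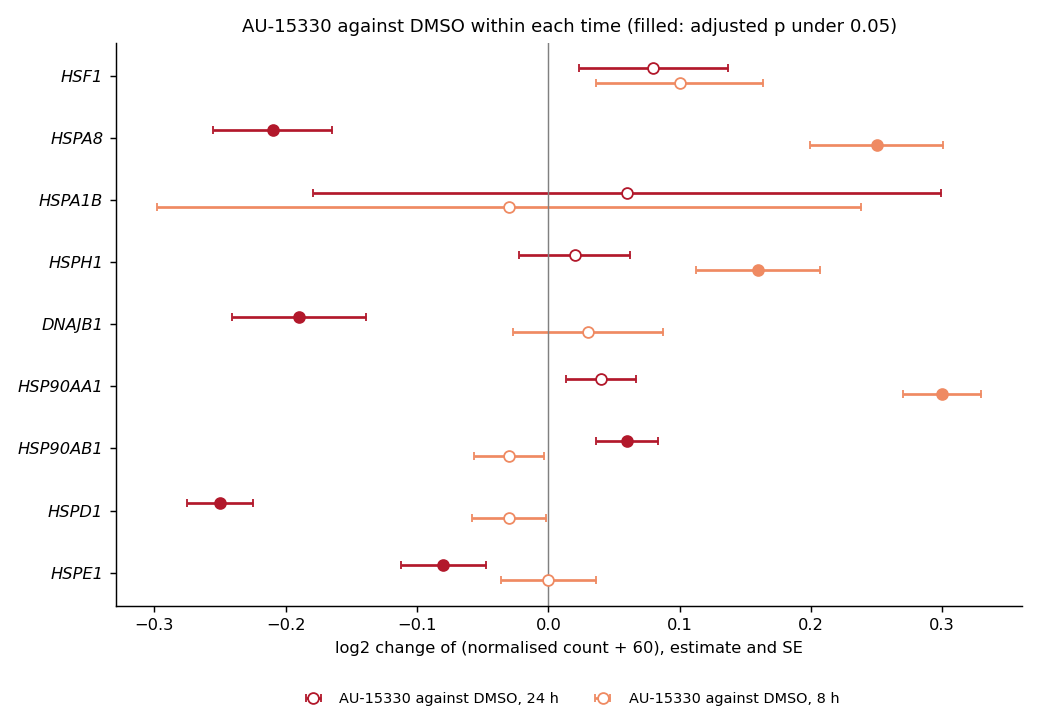
Log2 change of (normalised count + 60) under AU-15330 against DMSO at 24 h and at 8 h for the 9 tested genes, with the estimate (point) and its SE (bar). Filled points passed an adjusted p of 0.05. HSPA8 lies at -0.21 at 24 h and at 0.25 at 8 h, HSP90AA1 stands at 0.30 at 8 h only, and HSPD1 stands at -0.25 at 24 h only.

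Setting the time shift of each arm beside the difference of the treatment effects divides the AU-15330 shift into the shift seen in DMSO and a remainder. Neither part can be told apart from batch, and without untreated libraries an effect of DMSO itself was not measured. The AU-15330 arm at 24 h against 8 h was lower for 7 of 9 genes, against 21.1% of all entries called lower, 18.3% called higher and 39.4% called either way. HSF1, at -0.03, and HSP90AB1, at 0.02, did not pass, and neither kept its sign under every alternative. HSPE1, at -0.12, missed the threshold without AU-15330 8 h replicate 1 (limma adjusted p = 0.0545). The difference of the treatment effects was called for HSPA8, HSP90AA1 and HSPD1, 3 of 9, each lower, against 11% of entries called lower, 7.54% called higher and 18.5% either way. For HSPA1B, HSPH1 and DNAJB1 the DMSO shifts of -2.76, -0.64 and -0.86 stood beside AU-15330 shifts of -2.67, -0.79 and -1.09, and the differences of 0.09, -0.15 and -0.23 did not pass. These comparisons share libraries, so their values are placed side by side and are not independent. In the DMSO comparison 8 of 9 genes had groups that did not overlap, where 42.4% of all entries had. Between AU-15330 and DMSO, groups were apart for 6 of 9 genes at 24 h, where they were for 59% of entries, and for 4 of 9 at 8 h, where they were for 62.5%. Between the times in AU-15330 they were apart for 7 of 9, where they were for 49.5% of entries. The 10 genes together held 12307 to 12456 CPM in AU-15330 at 24 h, 12139 to 12415 in DMSO at 24 h, 16305 to 16783 in AU-15330 at 8 h and 14943 to 14995 in DMSO at 8 h. The sums overlapped between the arms at 24 h and were higher in AU-15330 at 8 h.

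**Figure D4:**
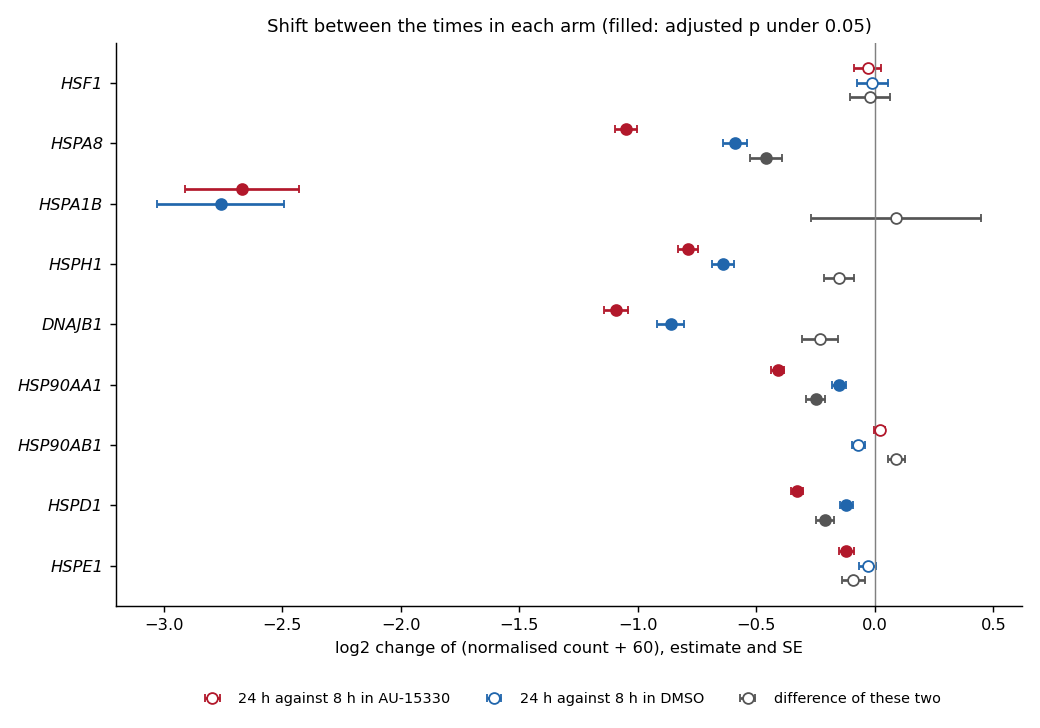
Log2 change of (normalised count + 60) at 24 h against 8 h in AU-15330 and in DMSO, and the difference of these, which equals the difference of the AU-15330 effect between the times, with the estimate (point) and SE (bar). Filled points passed an adjusted p of 0.05. The difference is largest and called for HSPA8 at -0.46, and it is not called for HSPA1B, whose shift is -2.67 in AU-15330 and -2.76 in DMSO.

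Other genes of the folding network were counted in 10 lists of 97 genes, of which 15 stand in more than 1 list, so that the counts of the lists are not separate. The lists, like the members, were chosen with earlier results of these data known, so their shares are descriptions and not independent support. With each gene counted once, 89 were tested, and 18 of them (20.2%) were lower and 3 (3.37%) higher in DMSO at 24 h against 8 h, beside 3.56% and 6.56% of all entries. Of 18 tested heat-inducible genes outside the members, 10 were lower (55.6%) and 2 higher (11.1%), with a median of -0.28, where all entries had a median of 0.01. DEDD2, which encodes a death effector domain protein, averaged 881 ± 50.3 at 24 h (SD, n = 3) and 1874 ± 19.2 at 8 h (SD, n = 2) in normalised counts of the DMSO libraries, a change of -1.04 ± 0.0714 (limma adjusted p = 6.78e-06). CHORDC1, an HSP90 co-chaperone, fell by 0.68 and DNAJA1, an HSP70 J-domain partner, by 0.34. BAG3, which joins HSP70 to selective autophagy, fell by 0.54, and the stress-inducible HSPA6 by 0.76, from a low mean of 155 counts to 67.7. DNAJB4 fell by 0.96 and DNAJB6 by 0.44, both J-domain proteins, of which 4 of 17 were lower (23.5%) and none higher. The HSP90 co-chaperone list, which also holds TRAP1, the HSP90 of mitochondria itself, had 7 of 17 lower (41.2%) and none higher, or 6 of 16 without TRAP1. STIP1, at -0.27, and FKBP4, at -0.29, were among those lower. Of 8 TRiC subunits, which form the cytosolic chaperonin ring, TCP1 at -0.28 and CCT6A at -0.14 were lower, and of 6 prefoldin subunits none was called. HSF2, HSF4 and HSBP1, the tested genes of the HSF family and its regulators, did not pass, with changes of 0.06, 0.22 and 0.01. Of 10 HSP70 exchange factors and co-chaperones 3 were lower (30%), of 8 other HSP70 genes HSPA6 was lower and HSPA13 higher at 0.17, and of 15 mitochondrial chaperones and proteases only TRAP1 was lower at -0.12, a share of 6.67%. Both tested genes of the list named small HSPs, HSPB1 at 0.08 and HSPB11 at -0.06, did not pass.

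AU-15330 at 24 h raised and lowered genes in most of these lists. Of the 89 genes, 28 (31.5%) were higher and 20 (22.5%) lower at 24 h, beside 24.7% and 26.2% of all entries. The heat-inducible list had 6 higher and 6 lower of 18 (33.3% each), with a median of 0.01, equal to that of all entries. DNAJB2, a J-domain protein with ubiquitin-binding motifs, had 2609 ± 234 normalised counts in AU-15330 and 564 ± 23.1 in DMSO (SD, n = 3 each), a change of 2.09 ± 0.091 (limma adjusted p = 2.74e-08), and it was also higher at 8 h by 1.12. DNAJB4 was higher by 0.68 at 24 h. Prefoldin, which hands nascent chains to TRiC, had 5 of 6 subunits higher (83.3%), with PFDN1 at 0.82, PFDN4 at 0.48 and PFDN2 at 0.46. The HSP90 co-chaperone list had 8 of 17 lower (47.1%) and 2 higher, or 7 of 16 lower (43.8%) without TRAP1, with UNC45A at -0.36 and PTGES3, the p23 protein, at -0.24. TRAP1, which the mitochondrial list counts too, was at -0.49. BAG1, an exchange factor of HSP70, was lower by 0.57 and BAG3 by 0.50, in a list with 2 of 10 lower (20%, under the share of all entries) and 1 higher, ST13 at 0.15. TRiC had 3 of 8 higher (37.5%) and 1 lower at 24 h, with TCP1 at 0.22, CCT8 at 0.10 and CCT5 at -0.14, and at 8 h 6 of 8 were higher (75%, beside 22.9% of all entries). Of the other HSP70 genes 4 of 8 were higher (50%) and 2 lower (25%), HSPA4 at 0.17, HSPA6 at 0.47 and HSPA13 at -0.29 being examples. HSPA6, also higher at 8 h by 0.63, was low, with means of 117 counts in AU-15330 and 67.7 in DMSO at 24 h. Of the mitochondrial list 6 of 15 were higher (40%) and 3 lower (20%), with CLPX and SPG7 both at 0.26. HSPB1 was higher at 0.20 and HSPB11 lower at -0.23. At 8 h, 33 of the 89 genes (37.1%) were higher and 12 (13.5%) lower, beside 22.9% and 21.4% of all entries. Beside TRiC, prefoldin had 4 of 6 higher at 8 h (66.7%) and the J-domain list 8 of 17 (47.1%). The heat-inducible list had 7 of 18 lower (38.9%) and 4 higher (22.2%) at 8 h.

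**Figure D5:**
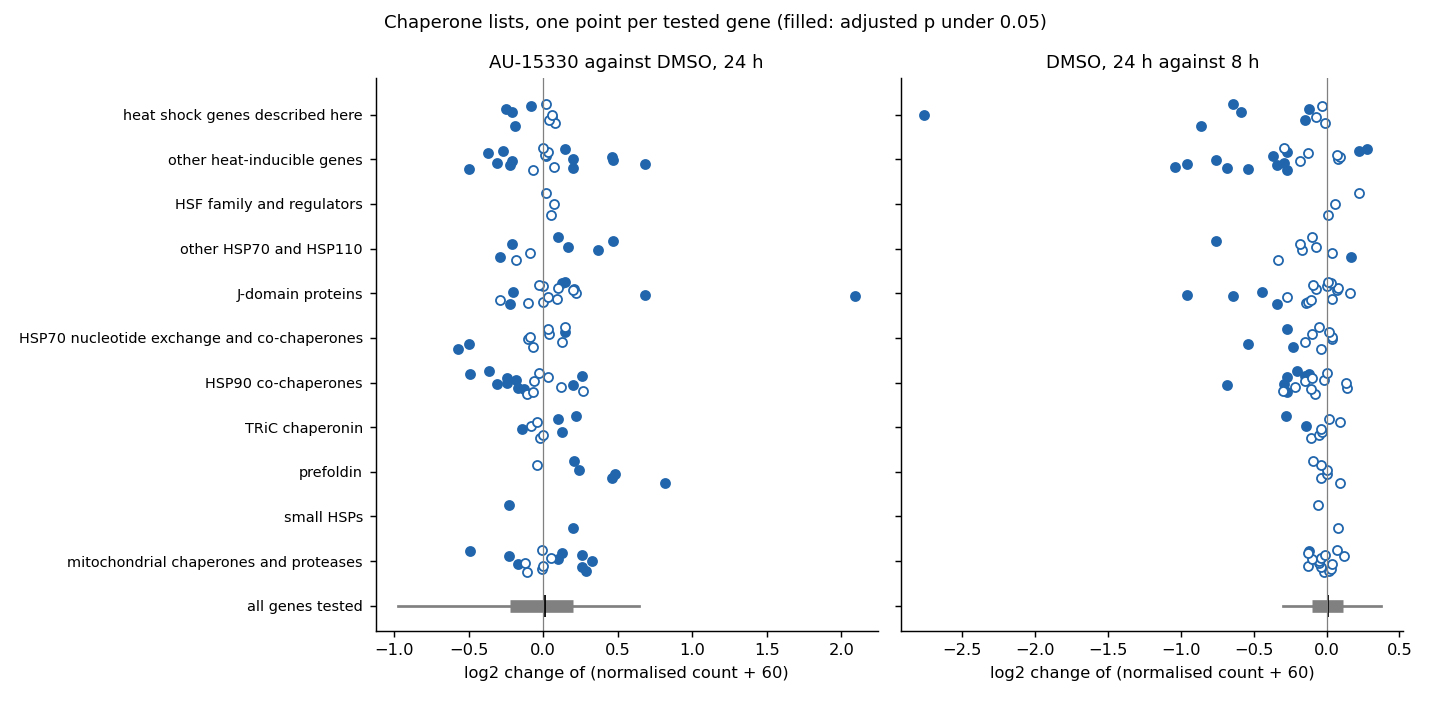
Log2 change of (normalised count + 60) for the tested genes of each chaperone list (points, filled where the adjusted p was under 0.05) under AU-15330 against DMSO at 24 h (left) and in DMSO at 24 h against 8 h (right). The lowest row gives the median (tick), middle 50% (thick bar) and 5th to 95th percentile (thin line) of all 12721 entries. On the right HSPA1B lies at -2.76 and 10 of 18 other heat-inducible genes are called lower, and on the left DNAJB2 lies at 2.09.

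The genes outside the set whose deposited values were most like the mean standardised level of the 9 tested genes, over 11 libraries, were UBR2 (Pearson's r = 0.989), TRA2A (0.980), TNFRSF18 (0.978), U2AF2 (0.977) and DEDD2 (0.974). The libraries share time, batch and treatment, so r describes the order of groups and carries no p. In DMSO at 24 h against 8 h their changes ran from -1.04 in DEDD2 to -0.24 in U2AF2, and under AU-15330 at 24 h from -0.05 in TRA2A to 0.07 in DEDD2.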

How the data were processed

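Sequencing was described by the labels as 50 bp reads of poly(A) or ribosome-depleted TruSeq libraries, without saying which kit served which sample. Per the submitters' processing notes, reads were handled with kallisto 0.46.1, DESeq2 1.24.0 under R 4.3.2, Trimmomatic 0.40 and FastQC 0.11.9, on GRCh38.p13. The authors deposited log2 values with a common floor of 10.36 in each library, the shape that DESeq2's variance-stabilising transform gives and log CPM, which the file's name gives, does not. It was inverted to obtain normalised counts. In a library 53.9% to 56.1% of low values (at most 20 counts) came within 0.02 of a whole number, so that whole reads were not recovered and no count model was run. On the deposited log2 scale a doubling is 0.163 at 100 normalised counts and 0.852 at 10000.

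Of 12 columns 1 duplicates another and was not used. The design assumed 12 samples and the fit used 11. Entries with at least 1 CPM in 3 libraries were tested (12721) in limma 3.58.1 under R 4.3.3, with 1 mean per group and a mean-dependent variance prior. GENCODE 29 gave coordinates for 91.41% of entries. The sources used here do not say whether counting used strand. The members and the lists were chosen with earlier results of these data known. From each list the 3 genes with the smallest p in the DMSO comparison and in AU-15330 at 24 h could be named, and 5 most alike genes. The procedure was also run on simulated, independent normal values. They held no batch difference and no reads shared between copies, so that run says nothing of these. Tables were built with pandas 2.3.3 and NumPy 2.4.6 and drawn with Matplotlib 3.10.9, all under Python 3.11.15. Alternatives were other scales, normalisations, filters, samples in the fit, priors, entries and replicate blocks, and each library left out.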

Additional observations from a re-analysis of the deposited data

Results flagged for a closer look

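Among 47 genes, the 9 tested heat shock genes and 38 named list genes, 13 had a called difference of the AU-15330 effect between 24 h and 8 h. It is given here as the log2 effect at 24 h minus that at 8 h, with its SE and limma adjusted p. The p is for the difference on the deposited scale, where a log2 change is a smaller step at a lower level. It therefore does not test the printed value itself. As batch equals time, these differences cannot be told apart from differences between batches. Of the heat shock genes described here, HSPA8 differed by -0.46 ± 0.0677 (limma adjusted p = 0.00109), HSP90AA1 by -0.25 ± 0.0399 (limma adjusted p = 0.00119) and HSPD1 by -0.21 ± 0.0377 (limma adjusted p = 0.00298).

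Among co-chaperones, PTGES3 differed by -0.28, STIP1 by -0.24 and CHORDC1 by -0.19, and CCT6A of the TRiC ring and the HSP110 relative HSPA4 by -0.25 and -0.27 (limma adjusted p of 0.000923 to 0.0244). The value of CHORDC1 has an SE of 0.0659, and its levels were lower at 24 h in both arms, so its call may depend on the scale. In the other direction, DNAJB2 differed by 0.98, IER5 by 0.77, DNAJB4 by 0.67, HSPB1 by 0.62 and PFDN1 by 0.52 (limma adjusted p of 5.2e-05 to 0.014). HSPB1, the small heat shock protein HSP27, was higher by 0.20 under AU-15330 at 24 h and lower by 0.42 at 8 h. IER5, which binds HSF1 and promotes its dephosphorylation, was higher by 0.46 at 24 h and lower by 0.31 at 8 h. Over all entries tested, 18.5% had a difference that passed. The 13 of 47 cannot be read against that share, since the list genes were named for a small p, in part under AU-15330 at 24 h, a term of the difference. Of all 89 tested list genes, named or not, 19 had a difference that passed (21.3%), 13 lower and 6 higher.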

How the results depend on the processing

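The 9 tested genes gave 45 results, and the counts of calls and these results were recomputed under 11 settings and in 11 fits that each left out 1 library. Fits without a DMSO 8 h library rest on 1 DMSO library there, assumed to vary like the other groups. Under AU-15330 at 24 h the count of called members was 3 with no filter and 3 to 5 when a library was left out. Entries called in DMSO at 24 h against 8 h numbered 661 to 1355 when a library was left out, with 688 without replicate 1 and 661 without replicate 2 of DMSO at 8 h and 851 without DMSO 24 h replicate 1, against 1287 in all libraries. Entries with a called difference of effects numbered 1571 to 2414, the lowest without DMSO 8 h replicate 2. Fewer samples enter these fits.

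Directions turned only in results that did not pass, apart from HSPE1 at 24 h, which was 0.01 under quantile normalisation. Under the same normalisation HSP90AB1 at 8 h was 0.02 and in AU-15330 between the times 0.00, HSPE1 at 8 h 0.00, and the difference of effects 0.01 for HSF1 and for HSPE1. With library medians centred that of HSF1 was 0.00. With HSPA1B entries summed, and with HSPA1A added (an alternative chosen after seeing the data), HSPA1B had -0.10 at 24 h, 0.04 at 8 h and a difference of -0.14. The cause was not tested. Leaving out a library gave ranges that crossed 0 for HSPA1B at 24 h (-0.16 to 0.36), at 8 h (-0.13 to 0.08) and in the difference (-0.14 to 0.39), HSPH1 at 24 h (-0.01 at the lowest), HSPE1 at 8 h (-0.02 at the lowest), and HSF1 in DMSO between the times (-0.05 to 0.03), in AU-15330 between the times (-0.07 to 0.00) and in the difference (-0.06 to 0.02).

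Quantile normalisation moved the entries called at 24 h to 3844 higher and 2921 lower, against 3146 and 3330, those of the DMSO comparison to 701 and 631, against 834 and 453, and those of the difference to 1030 and 968, against 959 and 1399. Same-numbered libraries had correlations of -0.043 to 0.134 in their deviations from group means, so no strong pairing by number was seen. Weak pairing is not excluded by these values. With a replicate block the DMSO comparison had 1082 called entries against 1287, the 24 h treatment comparison 6453 against 6476, and 4 members were called at 24 h against 5, HSPE1 being lost. At this depth all tested members but HSPA1B had at least 1939 counts in each library, and HSPA1B had the widest SE.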

Other observations

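Outside the members, 41 tested genes had a promoter window with 3 alternating GAA or TTC units and 8989 tested genes had windows without it. In DMSO at 24 h against 8 h, 6 of the 41 were lower (14.6%) and 4 higher (9.76%), with a median change of -0.01. Of the 8989 genes 3.65% were lower and 6.88% higher, with a median of 0.00. Under AU-15330 at 24 h, 14 of the 41 were lower and 14 higher, with a median of 0.03, against 27.1% lower and 26.5% higher of the 8989. These are counts, and no test of the motif was made.

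HSPA1L, the third HSP70 gene of the same region of chromosome 6, shares 4.42% of the 31-base windows of HSPA1B transcripts, and HSPA8 shares none of them.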
